A study of Homo sapiens with 4 samples.

Results

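The expression of 10 heat shock genes was described after knockdown of STAU1 in SAS, a cell line from a human squamous carcinoma of the tongue. The genes are HSP90AA1, HSP90AB1, HSPA8, HSPA1A, HSPA1B, HSPH1, DNAJA1, DNAJB1, HSPD1 and HSPE1. They were matched by symbol to 10 of the 67008 Ensembl genes of the deposited count table, and were chosen by their values in these same 4 libraries (shSTAU1 against Ctrl and replicate 1 against replicate 2), so those differences are given as a description. All libraries came from cells of wild-type genotype that had been infected with virus to deliver a short hairpin RNA (shRNA), expressed by the pLKO system in this study. The Ctrl group (2 libraries) carried shLuc, an shRNA against luciferase, and the shSTAU1 group (2 libraries) carried an shRNA against STAU1, a protein that binds double-stranded RNA. Each group therefore stands for a single shRNA, and no second shRNA against STAU1 was analysed here. The labels name the mouse fibroblast line C3H 10T1/2 as the cell line, while the cell type is given as an oral cancer line, the organism as human and the growth medium is that of SAS cells. No source says whether the replicates of a group were separate cultures, so the spread between them may be technical.

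Heat shock proteins are chaperones that help other proteins to fold, keep them from clumping, or hand them on for degradation. Heat shock factor HSF1 is held inactive in unstressed cells, and upon heat or other protein damage it forms trimers, binds heat shock elements in promoters and raises the transcription of chaperone genes. HSP90AA1 and HSP90AB1 encode the cytosolic HSP90 proteins, which mature kinases and steroid receptors, and cancer cells commonly carry high levels of them. HSPA8 is the constitutive cytosolic HSP70, HSPA1A and HSPA1B encode the stress-induced HSP70, DNAJA1 and DNAJB1 are J-domain proteins that pass substrates to HSP70, and HSPH1 is a nucleotide exchange factor of HSP70. HSPD1 and HSPE1 encode HSP60 and HSP10, which form the folding chamber of the mitochondrial matrix, and lie head to head on chromosome 2.

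Heat shock elements are built from units of 5 bases in alternating orientation, so promoters were searched for GAANNTTC and TTCNNGAA (N is any base), each of which reads the same on both strands, and for the 3-unit form in which both overlap by a unit. In the RefSeq promoter windows (GRCh38.p14, 250 bases before to 50 bases after an annotated start), all 10 genes had an entry, with 16 windows in total. Either pair of units was found in 9 of the 16 windows (8 of the 10 genes), against 13.5% of all 35116 windows, and the 3-unit form in 5 of the 16 (5 of the 10 genes), against 0.490%. The windows of HSPE1 and HSPH1 held neither, which says only that these letters are not in the windows. HSPD1 and HSPE1 lie head to head, and the site printed for HSPD1 falls within the annotated span of HSPE1 (197499994 to 197503457). For HSPE1 the result therefore depends on the limits of its window and does not mean that no site lies nearby. A match is a description of the sequence and not a measured binding site. A single site is printed for each gene, and further matches in the windows of HSP90AA1, HSP90AB1, HSPA8, DNAJA1 and DNAJB1 are left out. The sites below are shown because they are the known target sequence of HSF1, found for 8 of the 10 genes, with the matching units in capitals and positions counted from the annotated start base as 0.
HSP90AA1 (chr14:102087113-102087139, minus strand, -88 to -76): agggttcTTCCGGAAGGTTCgggaggc
HSP90AB1 (chr6:44247824-44247850, plus strand, -112 to -100): gagattgTTCTGGAAGCTTCtggattc
HSPA8 (chr11:123062172-123062198, minus strand, -55 to -43): gggccccTTCTGGAAGGTTCtaagata
DNAJA1 (chr9:33025269-33025295, plus strand, 3 to 15): ccgggcgGAACTTTCCAGAAcgctcgg
HSPD1 (chr2:197500064-197500089, minus strand, -245 to -228): cattTTCTGGAAAGTTCTGGAAccga
DNAJB1 (chr19:14518428-14518453, minus strand, -47 to -40): cgggctctgGAAGCTTCcgccggacg
HSPA1A (chr6:31815428-31815453, plus strand, -106 to -99): aaaaccctgGAATATTCccgacctgg
HSPA1B (chr6:31827624-31827649, plus strand, -105 to -98): aaacccctgGAATATTCccgacctgg
The HSPD1 site held 4 units in a row, and the HSPA1A and HSPA1B sites were the same 8 bases.

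HSPA1A and HSPA1B were listed at 0 counts in all 4 libraries, as was HSF1 itself, so neither the inducible HSP70 nor its main factor could be followed and the label "HSF1-driven" rests on what is known of these genes. A 0 in this table is not evidence that a gene is silent. HSPA1A (31815464 to 31817946) and HSPA1B (31827735 to 31830255) lie on chromosome 6 of GRCh38 within the major histocompatibility complex. Of the 181 protein-coding genes that start in a window over this complex and its flanks, set after the values were seen, 153 (84.5%) had no count in any library. This compares with 186 of the 860 other protein-coding genes of chromosome 6 (21.6%) and 4833 of the 19735 protein-coding genes outside the window (24.5%). RPS18, a protein of the small ribosomal subunit, and TUBB, a beta-tubulin, which dividing cells cannot do without, were among those at 0 and were named after their values were seen. The sequences of HSPA1A and HSPA1B are also nearly the same, and 72.6% of the 50-base stretches of the HSPA1A transcript (GENCODE 29) occur in the HSPA1B transcript. The part of the position and of the shared sequence in the counts of 0 was not tested, and rows without a gene name were not assigned to either gene. The other 8 genes had 332 to 385895 counts per library and all passed the filter on low counts.

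Depth was similar across libraries, at 33009118 (replicate 1) and 32206655 (replicate 2) reads counted for Ctrl, 35180221 for shSTAU1 replicate 1 and 36301574 for shSTAU1 replicate 2. Levels are given as CPM, the counts relative to a library size scaled by TMM. STAU1 (chromosome 20 of GRCh38 from 49113339 to 49188367, minus strand) had 249 and 251 CPM in Ctrl and 41.6 and 41.5 CPM in shSTAU1, 16.6% of the control level (log2 fold change -2.59 with a standard error of 0.13, and an edgeR adjusted p of 0.00103), and the replicates of each group were nearly equal. Markers of squamous epithelium were abundant, with KRT5 at 3236 and 3387 CPM in Ctrl and 5488 and 4893 CPM in shSTAU1. Of the 11 epithelial markers KRT5 (log2 fold change 0.65, adjusted p = 0.0408 from edgeR's test) and SFN (38.4 and 27.1 CPM in Ctrl, 92.1 and 84.3 CPM in shSTAU1, 1.43, adjusted p = 0.0285) rose, beside 1.13% of all genes tested. The fit was higher for 8 of the 11 and lower for KRT8 (-0.12), KRT18 (-0.16) and CDH1 (-0.29), which did not pass. With library size in place of TMM, or with offsets for transcript length and GC content, 1 of the 11 passed. With no filter on low counts 0 passed. The part of these markers in the results was not tested. The fibroblast markers COL3A1, DCN, LUM and THY1 were at or near 0. The 8 fibroblast markers summed to 10.2 to 22.8 CPM per library, most of it COL1A1 (15.7 and 20.2 CPM in Ctrl, 7.84 and 6.25 CPM in shSTAU1), which fell (log2 fold change -1.35, adjusted p = 0.0360 from edgeR's test), against 15629 to 20247 CPM for the 11 epithelial markers. COL1A2 went the other way without passing (1.19 and 1.68 CPM in Ctrl, 2.15 and 3.62 CPM in shSTAU1, log2 fold change 1.01, adjusted p = 0.185 from edgeR's test). The 5 leukocyte markers summed to 0.214 to 1.15 CPM, and the 4 endothelial markers to 7.44 to 18 CPM, nearly all from VWF (3.11 to 13.6 CPM) and CDH5 (4.3 to 7.02 CPM), with PECAM1 and KDR at or near 0. Transcripts of the mitochondrial genome took 3.43% and 3.26% of the counts in Ctrl and 2.80% and 2.25% in shSTAU1, and the part of this difference in the results was not tested. These are bulk libraries, in which fewer cells that express a gene and less of its RNA per cell cannot be told apart.

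HSP90AA1, HSP90AB1, HSPA8 and HSPD1 were among the 58 genes with most counts in every library, while DNAJB1 and HSPE1 were at most 34.2 and 18.1 CPM. Together the heat shock genes took 1.36% of the scaled library in Ctrl replicate 1, 1.72% in Ctrl replicate 2, 1.38% in shSTAU1 replicate 1 and 2.37% in shSTAU1 replicate 2. The sum was thus alike in the replicate 1 libraries of both groups, higher in Ctrl replicate 2 and highest in shSTAU1 replicate 2. HSP90AA1 was the largest contributor in each library, and ranked 9th, 7th, 8th and 4th among all genes by count in these libraries. The plot of CPM by library shows the values of each gene.

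**Figure D1:**
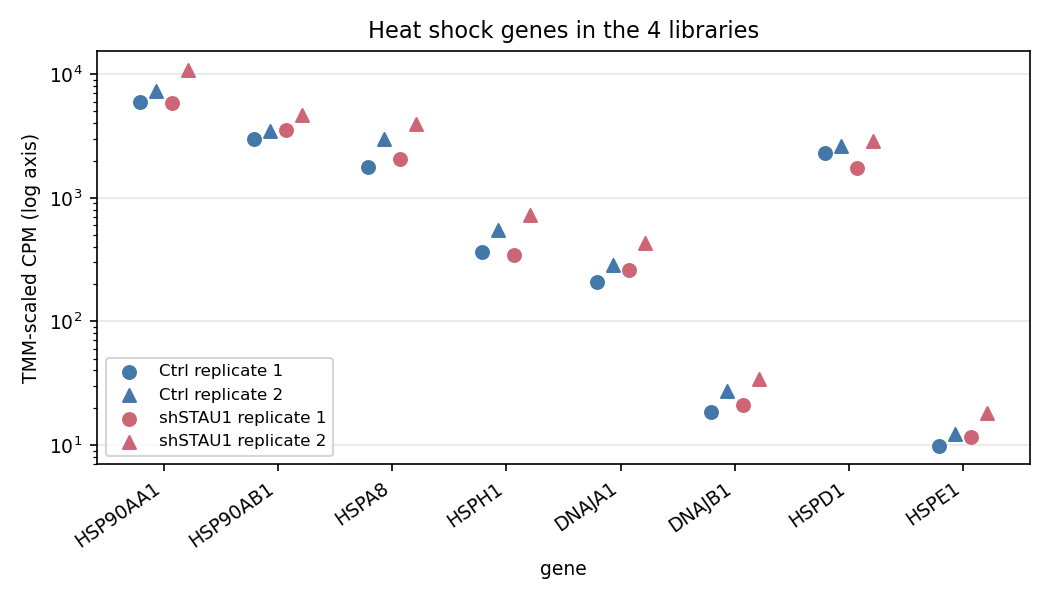
TMM-scaled CPM (log axis) of the 8 heat shock genes with counts, with a point for each library (blue, Ctrl; red, shSTAU1; circles, replicate 1; triangles, replicate 2). The shSTAU1 replicate 2 library is the highest for all 8 genes (27.5% of all genes tested), from 18.1 CPM for HSPE1 to 10920 CPM for HSP90AA1. As the genes were listed with these values known, nothing is read from this count.

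The cytosolic HSP90 genes came first in level. HSP90AA1 (chromosome 14 of GRCh38 from 102080738 to 102139699, minus strand), the stress-inducible HSP90, had 5921 and 7274 CPM in Ctrl and 5834 and 10920 CPM in shSTAU1. The shSTAU1 libraries lay on either side of the Ctrl libraries, with replicate 1 the lowest and replicate 2 the highest of all 4. The means were 6598 ± 957 and 8377 ± 3596 CPM (SD, n = 2 each), and the fitted log2 fold change was 0.34 (standard error 0.27). HSP90AB1 (chromosome 6 from 44246166 to 44253888, plus strand), the constitutive HSP90, had 2998 and 3442 CPM in Ctrl and 3518 and 4675 CPM in shSTAU1. It was the single heat shock gene whose groups did not overlap, with shSTAU1 replicate 1 only 1.02 times the higher Ctrl library. Of all 14303 genes tested, 56.6% had groups that did not overlap. The log2 fold change of HSP90AB1 was 0.35 (standard error 0.16).

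The HSP70 machine was measured through its constitutive member and 3 cofactors. HSPA8 (chromosome 11 from 123057489 to 123063230, minus strand) had 1780 and 3013 CPM in Ctrl and 2045 and 3951 CPM in shSTAU1. Here the replicates of each group stood further apart than the groups, since both replicate 2 libraries lay above both replicate 1 libraries. Both replicate 2 libraries were likewise the higher ones for every other heat shock gene with counts except HSP90AB1. Its log2 fold change was 0.32 (standard error 0.33). HSPH1 (chromosome 13 from 31134974 to 31162388, minus strand), which recharges HSP70 with ATP by releasing ADP, had 365 and 549 CPM in Ctrl and 347 and 729 CPM in shSTAU1. Its groups overlapped in the same way as those of HSP90AA1, with the lowest and the highest value in shSTAU1, and its log2 fold change was 0.24 (standard error 0.33).

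Both J-domain genes had overlapping groups. DNAJA1 (chromosome 9 from 33025211 to 33039907, plus strand) had 208 and 288 CPM in Ctrl and 258 and 430 CPM in shSTAU1. Its log2 fold change was 0.47 (standard error 0.25). DNAJB1 (chromosome 19 from 14514770 to 14529770, minus strand), which is strongly heat-induced and also feeds back on HSF1 with HSP70, was far less abundant, with 18.6 and 27.2 CPM in Ctrl and 21.1 and 34.2 CPM in shSTAU1. Its log2 fold change was 0.27 (standard error 0.27).

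The mitochondrial pair differed in level and in the direction of its fitted change. HSPD1 (chromosome 2 from 197486581 to 197516737, minus strand) had 2302 and 2615 CPM in Ctrl and 1731 and 2900 CPM in shSTAU1. It was the single member with a fitted value below 0 (log2 fold change -0.09, standard error 0.23), and its shSTAU1 libraries were the lowest and the highest of the 4. HSPE1 (chromosome 2 from 197499994 to 197503457, plus strand) had 9.87 and 12.2 CPM in Ctrl and 11.5 and 18.1 CPM in shSTAU1, a log2 fold change of 0.43 (standard error 0.26). With offsets for transcript length and GC content the log2 fold change was 0.21 for HSPE1 and -0.19 for HSPD1. HSP10 and HSP60 work in one complex, yet the transcript of HSPE1 was counted at 332 to 640 reads and that of HSPD1 at 60249 to 102478 reads. Of the 50-base stretches of the HSPE1 transcript, 52.9% occur on either strand in transcripts of other genes, the overlapping HSPD1 and the readthrough gene HSPE1-MOB4 first, and HSPE1-MOB4 was listed at 0 counts. For HSPD1 the share was 25.0%, mostly in processed pseudogenes, of which HSPD1P1 had 802 to 1397 counts per library. The part of shared sequence in these levels was not tested. The share was 18.8% for HSP90AB1, 18.2% for HSP90AA1, 15.4% for HSPA8, 2.57% for DNAJB1, 1.5% for DNAJA1 and 0 for HSPH1.

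Levels were compared between genes as CPM per kilobase of the principal transcript of GENCODE 29. The mean over the 4 libraries was 2216 for HSP90AA1, 1368 for HSP90AB1, 1095 for HSPA8 and 972 for HSPD1, then 124 for DNAJA1 and 95.8 for HSPH1, and 13.6 for HSPE1 and 11.2 for DNAJB1. The order was the same per kilobase of coding sequence, from 3410 for HSP90AA1 to 24.8 for DNAJB1. Tiers stood apart by more than the spread over libraries, and within each tier the ranges of neighbours overlapped. HSP90AA1 ran from 1727 to 3232 and HSP90AB1 from 1121 to 1748, HSPA8 ran from 723 to 1604 and HSPD1 from 705 to 1181, DNAJA1 ran from 87.2 to 181 and HSPH1 from 66.8 to 140.4, and HSPE1 ran from 10.4 to 19.1 and DNAJB1 from 8.21 to 15.1. Within each library, however, HSP90AA1 lay above HSP90AB1, DNAJA1 above HSPH1 and HSPE1 above DNAJB1. HSPA8 lay above HSPD1 in every library except Ctrl replicate 1. The libraries were made with an exome capture kit, so the level of a gene also depends on its probes.

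Against Ctrl, 7 of the 8 heat shock genes had a fitted value above 0 in shSTAU1 and 1 had a value below 0. The median log2 fold change was 0.33, beside 0.01 over all 14303 genes tested. None of the 8 passed an adjusted p of 0.05 in edgeR's quasi-likelihood test, beside 2.6% of all genes tested (161 higher and 211 lower, or 132 higher and 272 lower with library size in place of TMM). None had an unadjusted p under 0.05, beside 24.5% of all genes. Nor did any of the 8 pass with library size (2.82% of all genes did), DESeq2 (5.79%), limma-voom (2.54%), no filter on low counts (0.0443%) or length and GC offsets (1.24%). The shares for DESeq2 and for no filter are over 24804 genes, those with low counts included. With the replicate number as a block 4 passed (28.6% of all genes did), and with the block and the offsets 2 passed (24.3%). As the genes were listed with this comparison known, nothing is read from their count. The standard errors of 0.16 to 0.33 leave log2 differences of this size undetermined, and counting error is small at these depths. For a single gene at this group size, the smallest two-sided p of an exact permutation test is 0.333.

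The fitted changes turned on single libraries, as the plot of fold changes with 1 library left out shows. Without shSTAU1 replicate 2, the median log2 fold change of the 8 genes was -0.16, and HSP90AA1 (-0.19), HSPA8 (-0.24), HSPH1 (-0.41) and DNAJB1 (-0.13) changed direction. In that fit HSPH1 and HSPD1 (-0.52) passed the threshold as lower, where 14.5% of all genes passed. Without shSTAU1 replicate 1, the median was 0.71 and 7 of the 8 genes, all but HSPD1 (0.25), passed as higher, where 18.5% of all genes passed. Without Ctrl replicate 1 the median was 0.11, with HSPA8 at -0.01 and HSPH1 at -0.03, and without Ctrl replicate 2 it was 0.57, with HSPD1 at 0.01. None of the 8 passed in the last pair of fits, where 0% and 0.427% of all genes did. In each of these fits the lone library of a group is assumed to vary like those of the other group. HSP90AB1, DNAJA1 and HSPE1 were fitted above 0 in all 4 fits, at lowest 0.12, 0.05 and 0.06 without shSTAU1 replicate 2.

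**Figure D2:**
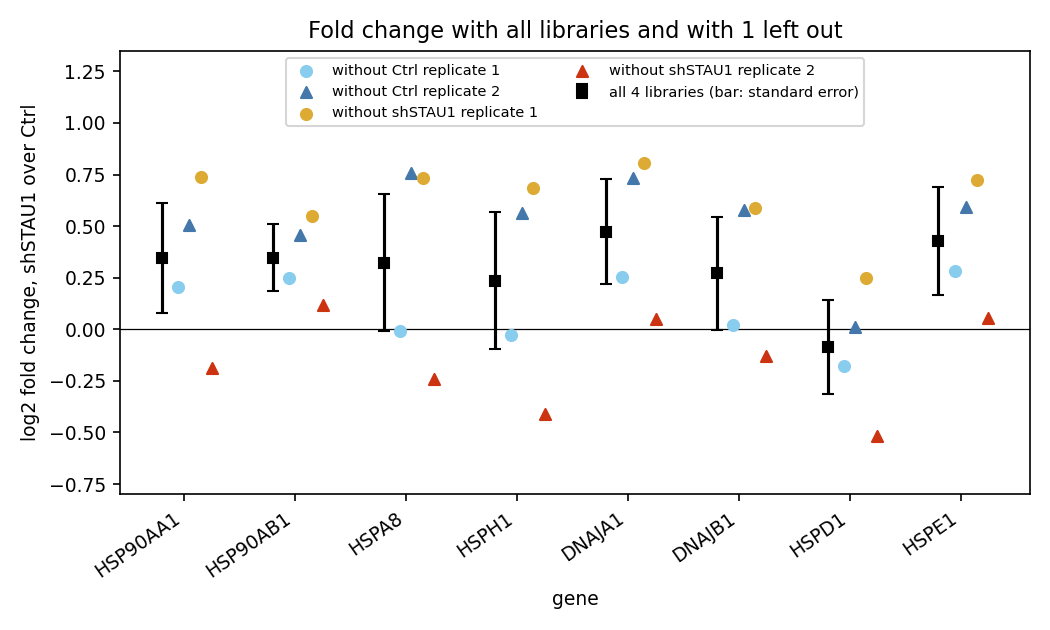
Log2 fold change of shSTAU1 over Ctrl for the 8 heat shock genes, from all 4 libraries (black squares, bars are the standard error) and from 3 libraries (coloured points). The fits without shSTAU1 replicate 2 lie lowest for every gene, from -0.52 for HSPD1 to 0.12 for HSP90AB1.

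The replicates were then compared within each group. All 8 genes were higher in replicate 2 than in replicate 1 in Ctrl and again in shSTAU1, and in all 8 the ratio was larger in shSTAU1. Among all genes tested, 31.5% were higher in replicate 2 in both groups, 19.7% were so with the larger ratio in shSTAU1, and among the 4791 genes with a mean log2 CPM above 5 the share higher in both groups was 38.1%. As the comparison of the replicates was named with the genes, these shares are set beside their count and nothing is read from it. In Ctrl the ratio of replicate 2 to replicate 1 ran from 1.14 for HSPD1 to 1.69 for HSPA8, with a median of 0.39 on the log2 scale (-0.00256 over all genes). In shSTAU1 it ran from 1.33 for HSP90AB1 to 2.10 for HSPH1, with a median of 0.74 (-0.00710 over all genes). HSPA8 and HSPH1 were at least 1.5 times higher in replicate 2 of Ctrl, as were 8.12% of all genes, and of both groups, as were 2.17%. In shSTAU1 all but HSP90AB1 passed 1.5-fold, as did 8.74% of all genes. Each of these ratios compares a single pair of libraries and has no replicate check.

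**Figure D3:**
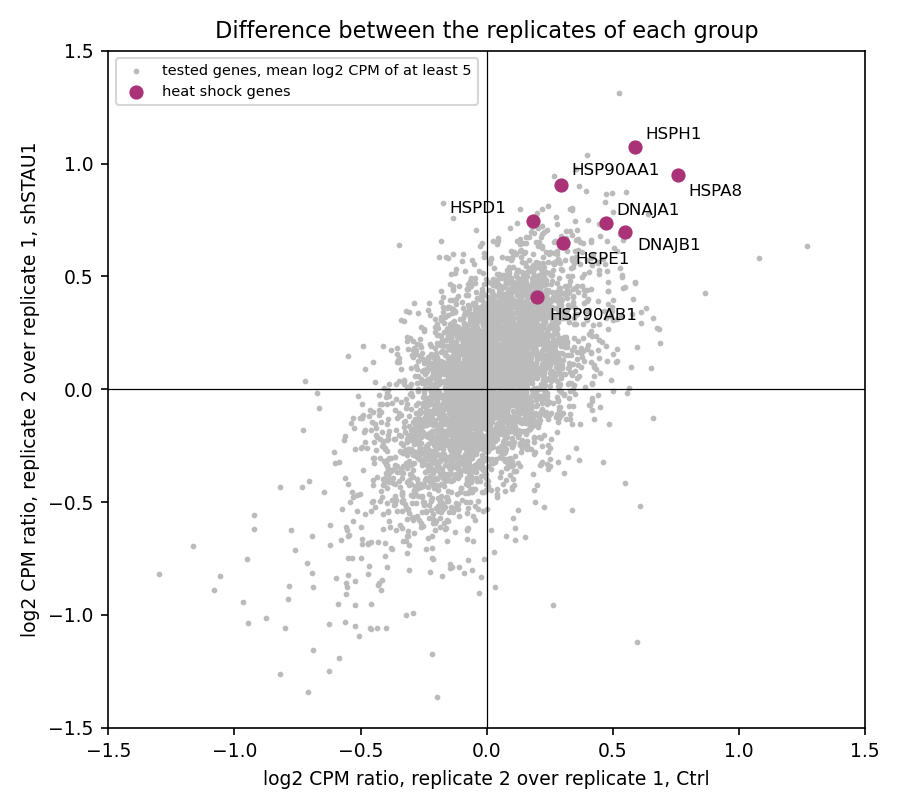
Log2 CPM ratio of replicate 2 over replicate 1 in Ctrl (horizontal axis) and in shSTAU1 (vertical axis) for the 4791 tested genes with a mean log2 CPM above 5 (grey) and the 8 heat shock genes (purple). The axes leave out 5 genes, and all 8 lie in the upper right part, from HSP90AB1 (0.20 and 0.41) to HSPH1 (0.59 and 1.07).

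HSPH1 and HSPA8 differed most between replicates, and the HSP90 genes were unlike each other. HSPH1 was 1.5 times higher in replicate 2 of Ctrl and 2.10 times in shSTAU1, and HSPA8 was 1.69 and 1.93 times higher. HSP90AA1 was 1.23 and 1.87 times higher, while its constitutive relative HSP90AB1 was 1.15 and 1.33 times higher. The J-domain genes were close to each other, at 1.39 and 1.66 times for DNAJA1 and 1.46 and 1.62 times for DNAJB1. The mitochondrial pair was higher by 1.14 and 1.68 times for HSPD1 and by 1.23 and 1.57 times for HSPE1. By contrast STAU1 had ratios of 1.01 and 0.997.

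Other genes of the chaperone network, and immediate-early genes, were taken from 10 lists of 125 distinct genes, of which 109 were tested and 10 were listed at 0. In edgeR's quasi-likelihood test 7 of the 109 were higher in shSTAU1 and 0 were lower, beside 1.13% and 1.48% of all genes tested, and the median log2 fold change was 0.26. At an unadjusted p under 0.05, 32 were higher and 6 were lower, beside 12.9% higher and 11.6% lower of all genes tested, and the same shares apply to the counts at this threshold in each list. DESeq2, which fitted 115 of the listed genes, called 18 higher and 2 lower, and limma-voom called 4 (2.54% of all genes were called). The DESeq2 share was 5.79% of all 24804 genes with a read. These include low-count genes that the filter removed from the main fit, so this share is over a wider set. With the replicate number as a block edgeR called 42 higher and 8 lower (28.6%), and with the block and length and GC offsets 33 higher and 7 lower (24.3%). The list counts with DESeq2 and with the block that follow stand beside the same shares, and DESeq2 fitted up to 3 more genes of a list. The 7 genes were DNAJC19, BAG1, CLU, HTRA2, PFDN5, ST13 and PFDN4. With 1 library left out, 0 passed without Ctrl replicate 1 (0% of all genes), 0 without Ctrl replicate 2 (0.427%), 48 without shSTAU1 replicate 1 (18.5%) and 22 without shSTAU1 replicate 2 (14.5%). With offsets for transcript length and GC content, BAG1 and DNAJC19 still passed.

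Among the cofactors of HSP70, BAG1 and ST13 rose. BAG1, a nucleotide exchange factor, had 17.3 and 21.9 CPM in Ctrl and 41.0 and 38 CPM in shSTAU1 (log2 fold change 1.01, standard error 0.17, adjusted p = 0.0360 from edgeR's test). ST13, which steadies the substrate-bound state of HSP70, had 170 and 154 CPM in Ctrl and 285 and 258 CPM in shSTAU1 (0.74, standard error 0.13, adjusted p = 0.0364). In both genes the groups stood well apart and, unlike HSPA8, replicate 2 of shSTAU1 was not above replicate 1. Of the 13 tested genes of the other HSP70 family members and cofactors, these 2 rose and 0 fell in edgeR's test, with a median of 0.31 (2 higher with DESeq2 and 5 with the block). With length and GC offsets BAG1 alone passed, and with no filter none of the list did. HSPA4, an HSP110 relative of HSPH1 and the most abundant of the list, had 415 and 432 CPM in Ctrl and 478 and 607 CPM in shSTAU1 without passing (0.36, standard error 0.15, adjusted p = 0.188).

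Of the 16 tested heat-inducible HSF1 targets outside the 10 genes, CLU alone rose and 0 fell in edgeR's test, with a median of 0.43, and 7 were higher and 1 lower at an unadjusted p under 0.05. DESeq2 called 6 higher and the block 11 higher and 2 lower, while none of the list passed with limma-voom, library size, no filter or length and GC offsets. CLU encodes clusterin, a secreted chaperone, and had 7.46 and 7.82 CPM in Ctrl and 15.0 and 14.9 CPM in shSTAU1 (log2 fold change 0.97, standard error 0.19, adjusted p = 0.0489 from edgeR's test). UBB, a ubiquitin gene and among the more abundant of the list, had 1316 and 1511 CPM in Ctrl and 1846 and 2293 CPM in shSTAU1 (0.55, standard error 0.15, adjusted p = 0.0819). Its groups did not overlap, and it did not pass. Of the 3 tested genes for heat shock factors and their binding protein, none passed in edgeR's test, with DESeq2 or with limma-voom (1 with the block), and 1 had an unadjusted p under 0.05. HSF2 had 48.5 and 39.4 CPM in Ctrl and 55.2 and 47.9 CPM in shSTAU1, and HSBP1, which binds HSF1, had 31.5 and 32.1 CPM in Ctrl and 43.4 and 46.5 CPM in shSTAU1.

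None of the 12 tested HSP90 co-chaperones passed in edgeR's test or with limma-voom (2 with DESeq2 and 8 with the block, all higher), with 4 at an unadjusted p under 0.05, all higher, and a median log2 fold change of 0.38. STIP1, which bridges HSP70 and HSP90, had 425 and 513 CPM in Ctrl and 471 and 744 CPM in shSTAU1, and NUDC had 230 and 271 CPM in Ctrl and 288 and 371 CPM in shSTAU1. Of the 12, 9 had their highest value in shSTAU1 replicate 2 (27.5% of all genes did) and 9 were higher in replicate 2 of both groups (31.5%). Of the 15 tested cytosolic J-domain genes none passed in edgeR's test or with limma-voom (2 higher with DESeq2, 6 higher and 2 lower with the block), with 3 higher and 1 lower at an unadjusted p under 0.05, and the median was 0.16. The most abundant were DNAJC13, which acts in endosomes (231 and 215 CPM in Ctrl, 251 and 247 CPM in shSTAU1), and DNAJC21, which acts in ribosome assembly (157 and 133 CPM in Ctrl, 160 and 170 CPM in shSTAU1).

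The cytosolic chaperonin TRiC and its partner prefoldin, which fold actin and tubulin, were tested with 13 genes, of which PFDN5 and PFDN4 rose and 0 fell (median 0.32). PFDN5 had 65.2 and 52.1 CPM in Ctrl and 100.5 and 97.5 CPM in shSTAU1 (log2 fold change 0.76, standard error 0.15, adjusted p = 0.0489 from edgeR's test), and PFDN4 had 31.2 and 29.4 CPM in Ctrl and 48.2 and 53.1 CPM in shSTAU1 (0.74, standard error 0.15, adjusted p = 0.0466). None of the TRiC subunits passed in edgeR's test, while DESeq2 called 4 genes of the list and the block 7. Limma-voom called 1 gene of the list, and 0 passed with library size, no filter or length and GC offsets. CCT5 had 1319 and 1473 CPM in Ctrl and 1443 and 2043 CPM in shSTAU1, and CCT2 had 848 and 947 CPM in Ctrl and 1122 and 1466 CPM in shSTAU1. The highest library was shSTAU1 replicate 2 for 11 of the 13 (27.5% of all genes). At an unadjusted p under 0.05 in edgeR's test, 5 of the 13 were higher and 0 were lower.

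In mitochondria, where HSPD1 and HSPE1 act, 2 of 14 tested chaperone and protease genes rose and 0 fell in edgeR's test (median 0.27). DESeq2 called 3 higher and 1 lower, limma-voom 1 higher and the block 5 higher and 1 lower. DNAJC19, a J-domain protein of the inner membrane import motor, had 31.8 and 38.4 CPM in Ctrl and 73.7 and 76.7 CPM in shSTAU1 (log2 fold change 1.10, standard error 0.15, adjusted p = 0.0306 from edgeR's test). HTRA2, a protease of the intermembrane space, had 28 and 31.9 CPM in Ctrl and 48.0 and 57.6 CPM in shSTAU1 (0.82, standard error 0.16, adjusted p = 0.0479). HTRA2 lost the threshold with library size, limma-voom, no filter and length and GC offsets, and DNAJC19 lost it with no filter. HSPA9, the mitochondrial HSP70, had 1835 and 1934 CPM in Ctrl and 1673 and 2157 CPM in shSTAU1 (0.02, standard error 0.15), with the extremes in shSTAU1 as for HSPD1. AFG3L2, a protease of the inner membrane, had 221 and 232 CPM in Ctrl and 301 and 311 CPM in shSTAU1 (0.44, standard error 0.12, adjusted p = 0.0841).

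In edgeR's test the remaining lists held no call. None of the 14 tested endoplasmic reticulum chaperones passed, nor with limma-voom (1 lower with DESeq2, 2 higher and 1 lower with the block), with 2 higher and 1 lower at an unadjusted p under 0.05 and a median of 0.09. HSP90B1, the HSP90 of that compartment, had 2166 and 2189 CPM in Ctrl and 2265 and 2434 CPM in shSTAU1, and CALR had 967 and 1068 CPM in Ctrl and 1236 and 1548 CPM in shSTAU1. Of the 3 tested small heat shock proteins none passed, nor with limma-voom (1 higher with DESeq2 and 2 with the block), with 2 at an unadjusted p under 0.05. HSPB1 had 101 and 96.7 CPM in Ctrl and 168 and 132 CPM in shSTAU1 (log2 fold change 0.60, standard error 0.15, adjusted p = 0.0730 from edgeR's test), and HSPB11, which also works in cilia and is named IFT25 in the current tables, had 35.7 and 34.6 CPM in Ctrl and 43.8 and 48.5 CPM in shSTAU1. None of the 13 tested immediate-early genes passed, nor with DESeq2 or limma-voom (1 higher and 3 lower with the block), with 2 in each direction at an unadjusted p under 0.05. KLF6 had 182 and 155 CPM in Ctrl and 151 and 119 CPM in shSTAU1, and MYC had 108 and 91.1 CPM in Ctrl and 138 and 105 CPM in shSTAU1. Both were lower in replicate 2 than in replicate 1 in each group, while 4 of the 13 genes were higher in replicate 2 of both groups (31.5% of all genes).

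**Figure D4:**
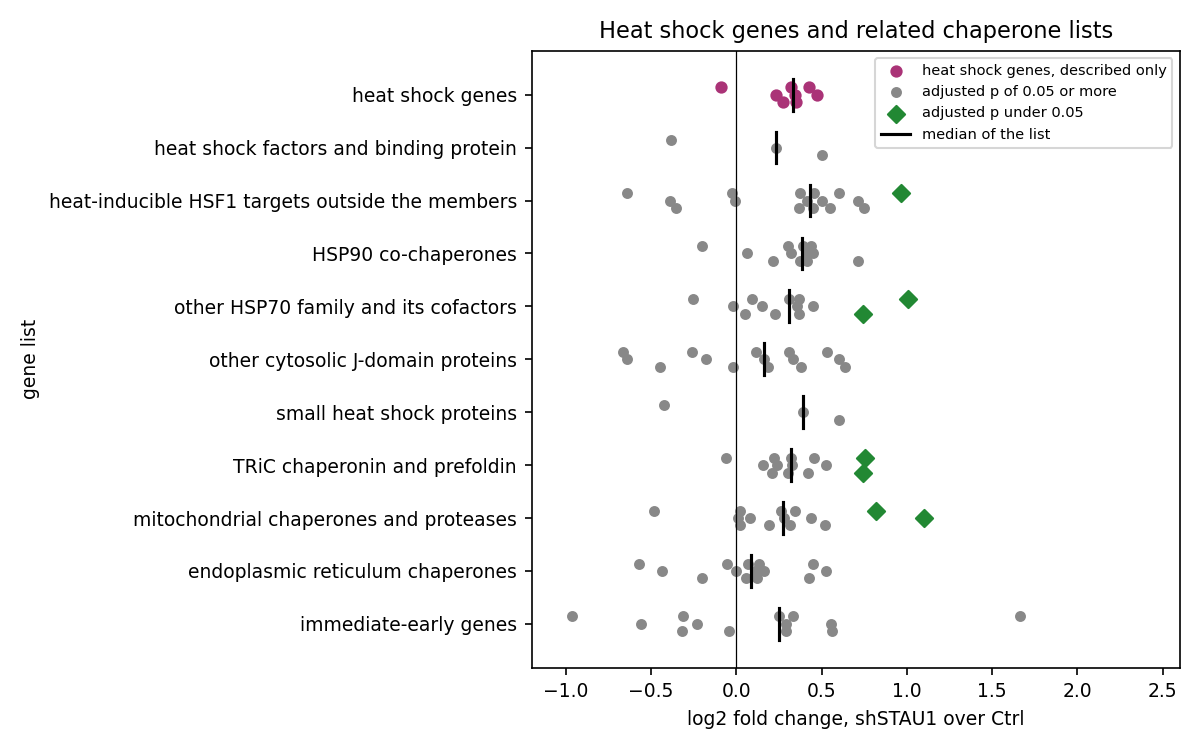
Log2 fold change of shSTAU1 over Ctrl for the tested genes of the heat shock set (purple, described only) and of 10 related lists (grey, adjusted p of 0.05 or more in edgeR's test; green diamonds, under 0.05), with the list medians as black lines. The 7 green genes all lie above 0, from 0.74 for PFDN4 to 1.10 for DNAJC19, and a gene in several lists is drawn in each.

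Other genes were compared with the mean profile of the heat shock genes. Of 4704 genes with a mean log2 CPM of at least 5, leaving out the heat shock genes, the related lists and the cell type markers, 482 (10.2%) lay as near to it as HSPD1, the member farthest from it, by the root mean square difference of centred log2 CPM over 4 libraries. The nearest were PHF19 (0.026), a Polycomb cofactor, EMG1 (0.030), a methyltransferase of ribosome assembly, STAG1 (0.041), a cohesin subunit, TIMM17A (0.042), a channel component of mitochondrial import, and CDC20 (0.048), an activator of the anaphase-promoting complex. CDC20 had 156 and 205 CPM in Ctrl and 151 and 278 CPM in shSTAU1. With only 4 libraries many genes share such a profile, and likeness of this kind is a description.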

How the data were processed

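RNA sequencing was analysed from 2 Ctrl and 2 shSTAU1 libraries, made from total RNA with the TruSeq RNA Exome kit. The authors deposited whole-number read counts per gene, not normalized. The submitters' processing notes name Partek and hg38, and the aligner, strand setting and annotation release are not given in the sources used here. Every row has a gene identifier and no sample column was left unmapped. Of the 67008 identifiers, 58516 are in GENCODE 29 (GRCh38), with 99.9% of the counts.

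The table was tested with edgeR 4.0.16 in R 4.3.3 (filterByExpr defaults, TMM, quasi-likelihood test, Benjamini-Hochberg adjustment, threshold 0.05), which tested 14303 genes, and described in Python 3.11.15. No replicate pair was a repeat of a single library (chi-square over degrees of freedom 23.4 in Ctrl and 56.4 in shSTAU1). On counts simulated for shSTAU1 against Ctrl (14035 genes) the edgeR test recovered 100% of 200 changed genes, with 5 false calls of 205. These changes were large (median fitted log2 fold change of the raised genes 1.51), and smaller ones were not simulated. The simulated replicates also varied less than those of these data, and same-numbered libraries shared no difference. The recovery therefore checks that the code runs as meant and does not carry over to these libraries.

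The members and lists were chosen with earlier results of these data known. Named genes are STAU1, the members, and from each list the genes past the threshold and the 2 most abundant, plus the 5 nearest profiles, and HSF1, RPS18, TUBB, pseudogenes and cell type markers were added. A gene that the rule names is not reported here. Alternatives were DESeq2 1.42.0, limma-voom (limma 3.58.1), library size scaling, no filter, the replicate number as a block, length and GC offsets (mgcv 1.9.3, 99.0% of genes covered), other thresholds and leaving out each library.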

Additional observations from a re-analysis of the deposited data

Results flagged for a closer look

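In 3 heat shock genes the difference between shSTAU1 and Ctrl had opposite signs in the replicate 1 and in the replicate 2 libraries, on the log2 CPM scale. HSP90AA1 was at -0.021 in replicate 1 and 0.59 in replicate 2, HSPH1 at -0.074 and 0.41, and HSPD1 at -0.41 and 0.15. Each value compares 1 library with 1 library, and the difference between the replicates was not tested.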

How the results depend on the processing

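STAU1 was fitted lower under all alternatives run, and lost the threshold only without Ctrl replicate 1, where 0 genes passed. The number of genes past the threshold (372) was 1437 with DESeq2, 11 with no filter, 177 with length and GC offsets, 1585 at an adjusted p under 0.10, 2098 for an unadjusted p under 0.05 and at least 1.5-fold, and 0 to 2780 with 1 library left out. In the related lists (7 genes) it was 3 with library size in place of TMM, 20 with DESeq2, 4 with limma-voom, 0 with no filter, 2 with length and GC offsets and 0 to 48 with 1 library left out. For the heat shock genes (0 past the threshold, median log2 fold change 0.33), leaving out 1 library gave 0 to 7 genes and medians from -0.16 to 0.71, with HSP90AA1 from -0.19 to 0.74, HSPA8 from -0.24 to 0.76, HSPH1 from -0.41 to 0.68, DNAJB1 from -0.13 to 0.59 and HSPD1 from -0.52 to 0.25. The medians of the replicate ratios moved by less than the spread between replicates under both other scalings. The causes were not tested, and genes at 0 counts allow no value.

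Same-numbered libraries share a replicate number and the leading digit of their deposited column names, and no source says whether this marks a batch. Their deviations had a correlation of 0.27 over all tested genes and 0.59 over the 4791 more abundant ones (log2 CPM over 5). Whether the libraries were paired was not tested. Under the replicate block 4087 genes passed, with 50 in the related lists and 4 heat shock genes (HSP90AA1, HSP90AB1, HSPA8 and DNAJA1, all higher), beside 28.6% of all genes. With the block and the length and GC offsets 3479 genes passed, with 40 in the lists and 2 heat shock genes (HSP90AB1 and DNAJA1), beside 24.3%.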
